A study of Oryza sativa with 18 samples.

Results

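Peaks of N6-methyladenosine (m6A) that lie in a 3' UTR and cross at least 1 splice junction were examined in rice flowering panicles, booting panicles and flag leaves. They are the entries of the authors' deposited peak lists, 1 list for each tissue, that are annotated as 3' UTR and whose coordinates are split into 2 or more blocks. Each block is a stretch of exon, and each gap between blocks a stretch left out of the peak, in most cases of the size of an intron. The rule found 14033 of the 58134 peaks, 4669 of 19502 in flowering panicles, 4436 of 19083 in booting panicles and 4928 of 19549 in flag leaves. The 31969 one-block 3' UTR peaks of the same lists (10643, 10765 and 10561 in the same order) served as the comparison.

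m6A is placed on messenger RNA by a nuclear methyltransferase complex and read by YTH-domain proteins, and in plants as in animals it is enriched around stop codons and in 3' UTRs. Splicing leaves an exon junction complex just upstream of each junction, and a junction far downstream of the stop codon can mark a plant transcript for nonsense-mediated decay. ChIPseeker, the annotation tool named in the submitters' processing notes, gives the class 3' UTR to a peak that overlaps one, and the files hold no stop codon positions. Whether a crossed junction lies inside the 3' UTR or joins the last coding exon to the exon with the UTR therefore cannot be told apart here.

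The plants were Nipponbare, the japonica reference cultivar, grown in the field. Each of the 3 tissues had 3 m6A immunoprecipitates and 3 inputs, 18 libraries in all. Flowering panicles were collected on 14 August, booting panicles on 3 August and flag leaves at flowering on a day the labels do not give, each at about 3 PM, so the panicles' stage and their day of harvest cannot be told apart. The labels do not say whether replicates are separate plants, and p-values measure only the spread between these samples. Each peak list is the authors' list for a whole group, with no value for single replicates. Shares of peaks are therefore given with exact (Clopper-Pearson) 95% intervals that cover the counting of peaks only. Expression is the authors' FPKM in the 9 inputs, for 38663 genes.

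The inputs carried the marker genes of their labelled tissues. These markers were taken from textbook roles and from earlier results of these data, so they check the labels and are not a result. Summed FPKM of 4 floral MADS-box genes was 1042 to 1121 in flowering panicles, 614 to 624 in booting panicles and 4.91 to 7.35 in flag leaves. Of 3 mature pollen genes it was 6579 to 7915 in flowering panicles, 15.4 to 18.8 in booting panicles and 11.7 to 25.9 in flag leaves. For 3 genes of the anther before flowering it was 1.93 to 2.3, 525 to 1136 and 0.581 to 1.43 in the same order. Of 3 leaf mesophyll genes it was 2158 to 2435, 98.8 to 141 and 19126 to 19557 in flowering panicles, booting panicles and flag leaves. The sum of these 3 genes was thus higher in flowering than in booting panicles.

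Junction-spanning peaks made up 30.49% of the 15312 3' UTR peaks of flowering panicles (95% interval 29.76 to 31.23%), 29.18% of 15201 in booting panicles (28.46 to 29.91%) and 31.82% of 15489 in flag leaves (31.08 to 32.56%). The interval of flag leaves lies above that of booting panicles, that of flowering panicles overlaps both, and with 1 list for each tissue the differences have no replicate check. Most crossed a single junction: 3140 peaks had 2 blocks in flowering panicles, 3020 in booting panicles and 3362 in flag leaves. Peaks of 3 blocks numbered 1179, 1080 and 1196 in the same order, and peaks of 5 or more blocks 51, 57 and 70. On the 12 chromosomes the share ran from 28.5 to 32.2% in flowering panicles, from 27.5 to 30.4% in booting panicles and from 30.2 to 33.9% in flag leaves.

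The members sat at the very end of the transcript. Of those inside the listed gene, 84.79% in flowering panicles, 88.88% in booting panicles and 88.43% in flag leaves ended exactly at the annotated 3' end of the gene, against 67.29%, 75.91% and 74.61% of one-block peaks. In these the last exon carried most of the peak: its block had a median of 408 bases in flowering panicles, 409 in booting panicles and 413 in flag leaves, and exceeded all other blocks together in 95.91%, 95.76% and 94.84% of peaks. The stretch before the last junction had a median of 90, 86 and 87 exonic bases, and the last gap a median of 181.5, 187 and 187 bases, in the same order. A typical member is thus a last-exon peak with a short reach into the exon before it. Some gaps do not have the size of an intron: 16, 16 and 19 gaps were under 20 bases in flowering panicles, booting panicles and flag leaves. In 140, 139 and 155 members the peak reached outside the listed gene, so the gene it belongs to is uncertain.

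The exonic length, the sum of the blocks, had the same median of 510 bases in each list, with quartiles of 438 and 600 in flowering panicles, 438 and 600 in booting panicles and 445.8 and 625 in flag leaves. One-block peaks had medians of 386, 385 and 404 bases in the same order. The median genomic span of the members, introns included, was 892, 896 and 913 bases. Length grew with the number of junctions less than in proportion: members of 2, 3 and 4 blocks had median exonic lengths of 500, 538 and 593 bases in flowering panicles, 499, 539 and 597 in booting panicles and 504, 540 and 597 in flag leaves. Many lengths came in steps of 30 bases: 32.0 to 32.9% of members' lengths and 49.7 to 53.1% of one-block lengths in the 3 lists were within 1 base of a multiple of 30. How much of the difference in length from one-block peaks follows from the rule itself was not tested.

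**Figure D1:**
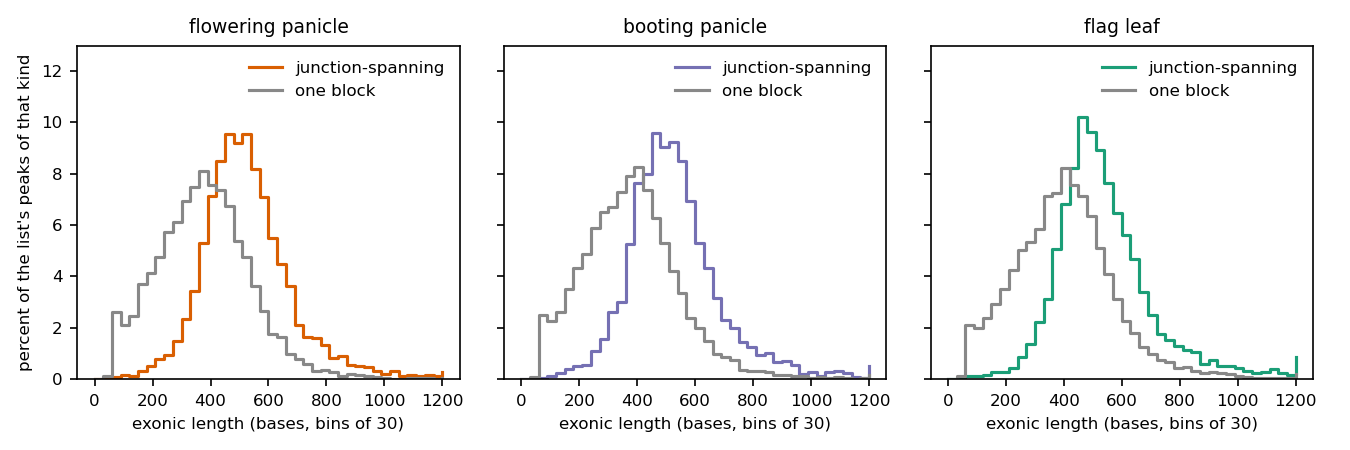
Exonic length (horizontal axis, bases, in bins of 30, with 1200 and above in the last bin) of junction-spanning peaks (coloured line) and one-block 3' UTR peaks (grey line) in flowering panicles, booting panicles and flag leaves, as a percent of the list's peaks of that kind (vertical axis). The coloured curves are highest in the bin that starts at 450 bases (in flowering panicles level with the bin at 510), to the right of the grey ones, which are highest in the bins that start at 360, 390 and 390 bases.

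Fold, the authors' ratio of immunoprecipitate to input for a peak, was higher in the members than in one-block peaks of the same list. The median was 13.5 against 6.9 in flowering panicles, 20.2 against 9.24 in booting panicles and 16.5 against 9.78 in flag leaves. Genes with a member had a higher median level in every library of each tissue: their median FPKM was 13.9 ± 0.462 in flowering panicles, 14.8 ± 0.311 in booting panicles and 12.0 ± 0.0512 in flag leaves, against 9.55 ± 0.261, 10.9 ± 0.239 and 7.11 ± 0.0743 for genes with a one-block peak (SD over the medians of 3 libraries). The one-block set left out genes that also had a member in the same list. Within genes of 5 to 20 FPKM the median fold of members was still 14.6, 21.9 and 17.8, against 7.38, 9.73 and 11.3 for one-block peaks, and the order was the same below 5 FPKM and at 20 FPKM or more. Folds of different lists were scaled separately, so in this paragraph they are compared only within a list. Where folds of different lists are set side by side below, that is a description.

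The share of 3' UTR peaks that crossed a junction was larger in more highly expressed genes. It was 20.47% in flowering panicles, 20.55% in booting panicles and 22.39% in flag leaves for genes under 5 FPKM. For genes at 20 FPKM or more it was 37.01%, 33.97% and 40.08% in the same order. The depth of immunoprecipitate reads at each gene was not analysed here.

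**Figure D2:**
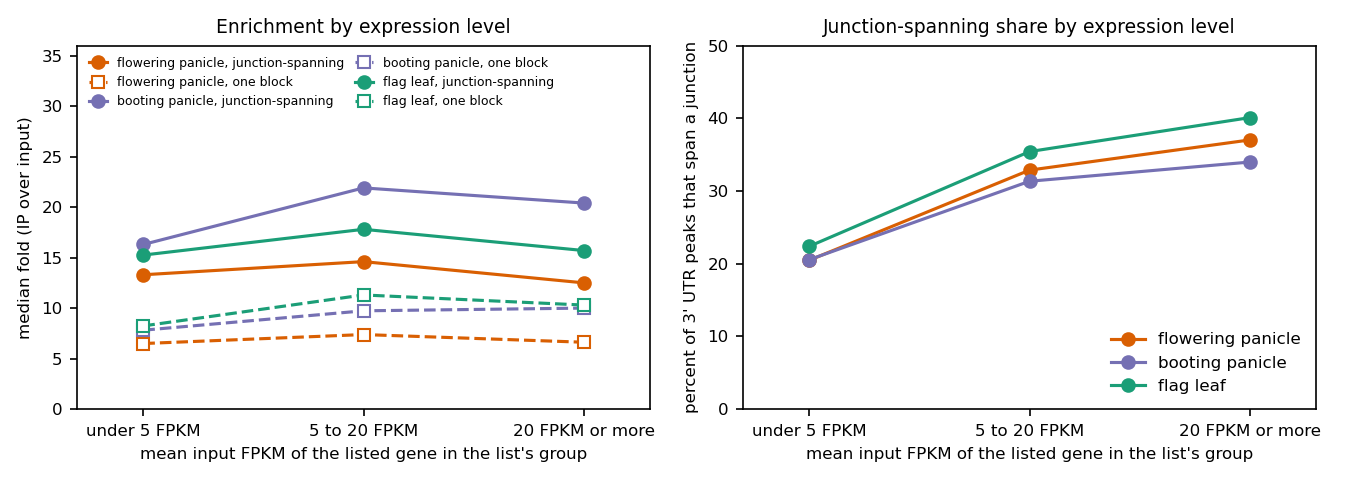
Left, median fold of immunoprecipitate over input (vertical axis) of junction-spanning peaks (filled circles, solid lines) and one-block peaks (open squares, dashed lines); right, percent of 3' UTR peaks that span a junction (vertical axis), both by the mean input FPKM of the listed gene (horizontal axis, 3 classes). Solid lines lie above the dashed line of the same colour at every level, and all 3 curves on the right go up, from between 20.47 and 22.39% to between 33.97 and 40.08%.

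Recurrence was counted as a partner: a junction-spanning 3' UTR peak of another list on the same chromosome and gene strand that shares at least 50% of the exonic bases of both peaks. Most members recurred. A partner in both other lists was found for 78.9% of members in flowering panicles, 83.0% in booting panicles and 74.7% in flag leaves, while 240, 239 and 667 members had none. Between pairs of lists, 78.12 to 90.83% of members had a partner, against 73.08 to 82.05% of one-block peaks. Of 3674 loci with mutual partners in all 3 lists, in 3635 genes, 98.64% used the same last junction, 77.8% the same full set of junctions and 18.7% identical blocks, with a median difference of 30 exonic bases between the longest and the shortest of the 3 peaks. The overlap asked of partners favours a shared last junction, so these shares are a description of the loci chosen. Flag leaves had the largest number of members without a partner.

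Most members without a partner still overlapped a peak of another list. Those that overlapped no peak in either other list were 24 of 240 in flowering panicles, 40 of 239 in booting panicles and 51 of 667 in flag leaves. For single pairs of lists, members without a partner faced no peak in 50 of 643 to 142 of 586 cases. The first were members of flowering panicles set against booting panicles, the second members of booting panicles set against flag leaves. Of all members, 1.07 to 3.2% had no overlapping peak in a given other list, against 8.26 to 14.9% of one-block peaks. In 143, 106 and 501 members the other lists both held a one-block peak at the place. Where 1 list had a junction-spanning peak and another a one-block peak on the same last exon, the one-block peak stopped a median of 24 to 42 bases short of the junction over the 6 ordered pairs of lists, and 42.3 to 63.8% stopped within 30 bases of it. The junction-spanning peak at these loci reached a median of only 23 to 32 bases past the junction. These values describe peaks just inside and just outside the rule.

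Reach past the junction went with recurrence in each list, but the rule enters this relation. A partner must itself span a junction, so a small shift of an edge can leave a peak of short reach without one. With any peak as partner, recurrence in both other lists was 94.02% in flowering panicles, 92.97% in booting panicles and 93.16% in flag leaves. How much of the relation follows from the rule was not tested. Of members with 11 to 30 exonic bases before the last junction, 43.0% had a partner in both other lists in flowering panicles, 64.4% in booting panicles and 40.6% in flag leaves. With 61 to 120 bases these shares were 87.7%, 89.3% and 86.1%. Within genes of 5 to 20 FPKM, members with over 30 bases had partners in both other lists in 89.2%, 89.5% and 85.6% of cases, against 40.3%, 66% and 40% with 30 bases or fewer. The genes of members with no partner had a lower level, with a median of 6.23 FPKM in flowering panicles, 3.66 in booting panicles and 7.59 in flag leaves, against 15.6, 17.0 and 12.9 FPKM for those with partners in both other lists.

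**Figure D3:**
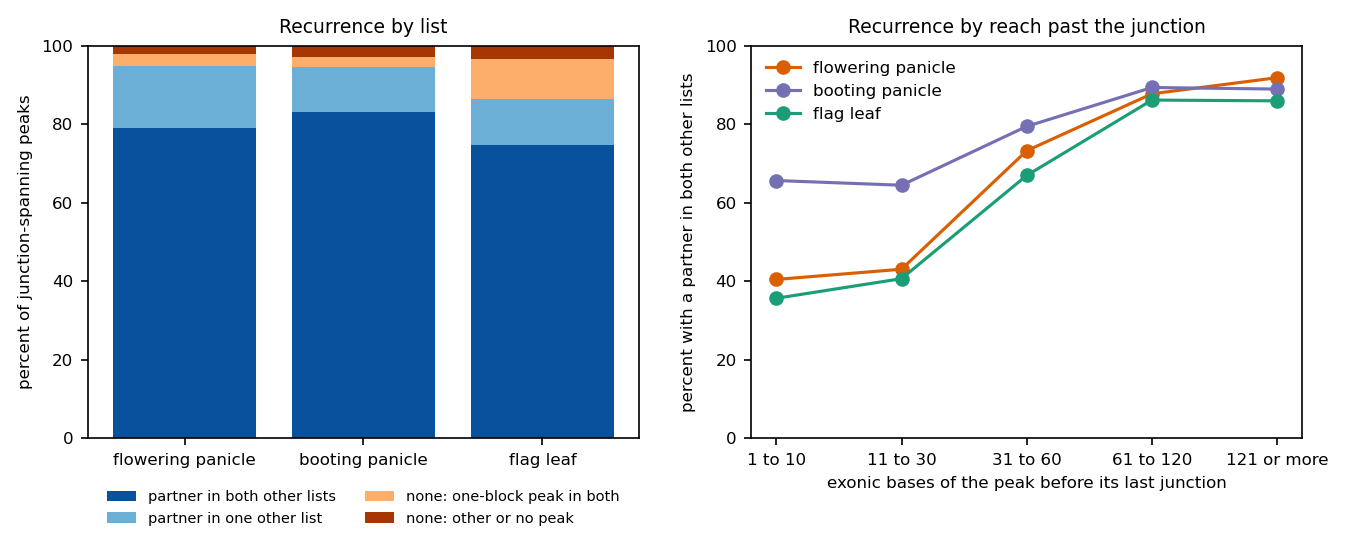
Left, percent of junction-spanning peaks of each list by the state of the same place in the other lists (stacked bars); right, percent with a partner in both other lists (vertical axis) by the exonic bases of the peak before its last junction (horizontal axis). Partners in both lists make up 78.9, 83.0 and 74.7% of the bars. The lines go up from between 35.6 and 65.6% at 1 to 10 bases to between 85.9 and 91.8% at 121 or more. A partner must itself span a junction, which ties the lines in part to the rule.

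The 10 named genes with a recurrent peak and the highest minimum fold over the lists served varied functions, and in 8 of them the last exon block was at least 361 bases. Positions are given as in the files, whose genome build is not stated in the sources used here, and all 10 peaks ended at the gene's annotated 3' end. MICRORCHIDIA 7 (LOC_Os02g27000), of an ATPase family that acts in gene silencing, had its peak at chromosome 2, 15875753 to 15876489 (plus strand) in flowering panicles, with blocks of 100 and 496 bases around a gap of 141. The same last block of 496 bases recurred in booting panicles and flag leaves, with 130 and 11 bases before the junction, and the listed folds were 47.3 in flowering panicles, 50.3 in booting panicles and 49.8 in flag leaves. Its transcript was at 13.9, 15.0 and 15.3 FPKM in the flowering panicle inputs, 15.3, 18.8 and 12.6 in the booting panicle inputs and 0.869, 0.865 and 0.931 in the flag leaf inputs. The groups of panicles overlapped, and both lay above the leaf, where the peak was present at a low transcript level.

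RNA processing was represented by a pair of these genes. The U11/U12 small nuclear ribonucleoprotein 65 kDa protein (LOC_Os03g21020), a part of the minor spliceosome, had 1 and the same peak in all 3 lists, at chromosome 3, 11924468 to 11925425 (minus strand), with 421 exonic bases of which 145 lay before a gap of 537. The gene described as a pre-mRNA-splicing DEAH4 helicase (LOC_Os11g20554) had identical blocks in both panicle lists, with 109 bases before a gap of 84, and 49 bases before it in flag leaves. Protein turnover gave another pair. The 26S proteasome non-ATPase regulatory subunit 4 homolog (LOC_Os03g13970), which binds ubiquitin chains, had the longest of the 10 peaks. Its 924 exonic bases lay in 3 blocks that were identical in the 3 lists. AMSH-like ubiquitin thioesterase 3 (LOC_Os01g31470), which removes ubiquitin in endosomal sorting, crossed the largest last gap of the 10, 1647 bases, with folds of 40.3 in flowering panicles, 41.1 in booting panicles and 67.1 in flag leaves.

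The other members of this group were tubulin-folding cofactor B (LOC_Os04g59560), an ankyrin-like protein (LOC_Os02g29210), a glycine--tRNA ligase of chloroplasts and mitochondria (LOC_Os06g01400), the chloroplastic GTP-binding protein At3g49725 homolog (LOC_Os03g51790) and the replication protein A 70 kDa subunit D (LOC_Os07g44770), which binds single-stranded DNA. Tubulin-folding cofactor B had identical blocks in both panicle lists, with listed folds of 46.8 in flowering panicles, 97.5 in booting panicles and 55.9 in flag leaves. The tRNA ligase varied most in its junctions: its peak had 4 blocks in flowering panicles, 2 in booting panicles and 3 in flag leaves, always with the same last block of 361 bases.

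**Figure D4:**
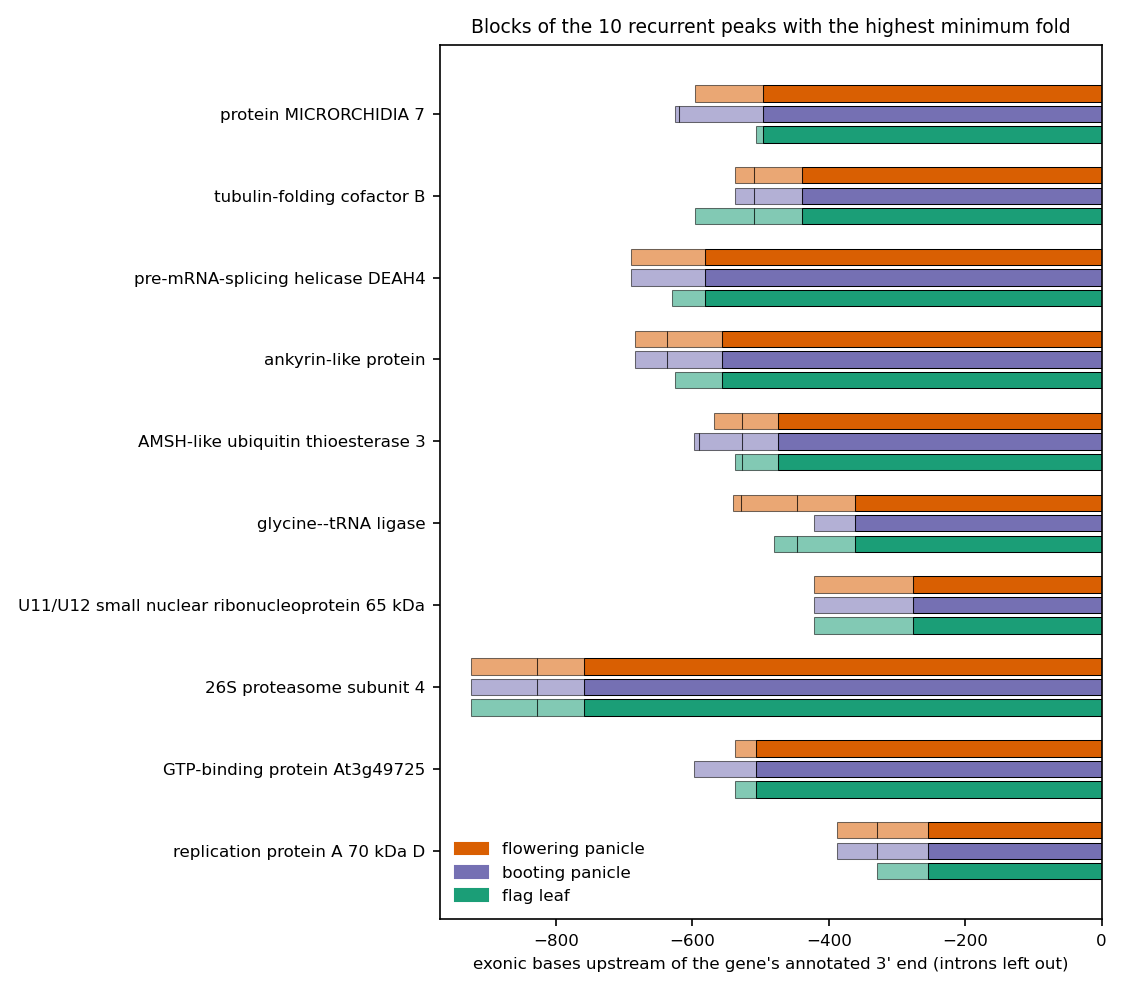
Blocks of the junction-spanning peaks of the 10 genes in flowering panicles, booting panicles and flag leaves (top to bottom within a gene), drawn from the annotated 3' end of the gene (0 on the horizontal axis) in exonic bases with introns left out; dark bars are the last block, pale bars the blocks before it, and black lines the junctions. The last block ends at the same junction in all 3 lists of each gene, and the lists differ in how far the pale part reaches.

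The named members with a high fold and no partner mostly faced one-block peaks in the other lists. This held in both other lists for all 5 such genes named in flowering panicles, 4 of 5 in booting panicles and 4 of 5 in flag leaves. Over all members without a partner it held for 143 of 240, 106 of 239 and 501 of 667 in the same order. In flowering panicles the la-related protein 1A gene (LOC_Os01g16110), an RNA-binding protein, reached 23 bases past its last junction with a fold of 23.6. FLUORESCENT IN BLUE LIGHT (LOC_Os02g37470), which restrains chlorophyll synthesis, reached 8 bases past it with a fold of 27.1. In booting panicles ABERRANT POLLEN TRANSMISSION 1 (LOC_Os03g23030), known in maize for pollen tube growth, had the highest fold, 104.0, with 62 bases before a gap of 539. Its transcript was at 22.5, 26.2 and 23.5 FPKM in flowering panicles, 6.39, 5.98 and 5.15 in booting panicles and 3.14, 3.13 and 3.18 in flag leaves, so the list with the junction-spanning peak was not that of the tissue with most transcript. In flag leaves a 5'-3' exoribonuclease gene (LOC_Os03g09180) had 5 bases before its last junction with a fold of 36.6, and hexokinase-3 (LOC_Os01g71320), which phosphorylates glucose, 48 bases with a fold of 33.0.

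In all, 5536 genes had a member in at least 1 list, 3693 of them (66.7%) in every list. A further 187 had one in flowering panicles only, 191 in booting panicles only and 601 in flag leaves only. Functions were counted by words in the deposited descriptions, with no test. Of genes with any 3' UTR peak, 34.7% had a junction-spanning one. The share was 59.3% for translation (201 genes with a member), 46.9% for splicing and RNA-binding (120), 46.5% for chromatin (47), 46.5% for vesicle traffic (80) and 43.6% for chloroplast and photosynthesis (361). It was 33.0% for ubiquitin and proteasome (140), 33.0% for chaperones (35), 24.4% for transcription factors (125), 23.6% for transport (105) and 17.4% for protein kinases and phosphatases (114). Pollen and anther words matched 4 member genes (a share of 40%) and clock and flowering time words 7 (29.2%). Nonsense-mediated decay words matched 1 (14.3%), mago nashi (LOC_Os12g18880), a core protein of the exon junction complex. Another 6 genes matched by these words had one-block peaks only. A gene without introns cannot hold a member, the files do not give the number of introns of every gene, and genes with a member spanned a median of 4434 bases against 3712 for genes with one-block peaks only; their part in these shares was not tested.

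Among the most expressed genes of these lists, many kept the same junction in each tissue. One of a pair of polyadenylate-binding protein 2 genes (LOC_Os08g22354), which coat poly(A) tails, had 91 bases before a gap of 94 in both panicle lists and 61 in flag leaves. The other copy (LOC_Os09g02700) had 99 bases before a gap of 91 in all 3 lists, and reads of such similar copies may have been split between them. The U1 small nuclear ribonucleoprotein 70 kDa gene (LOC_Os10g02630), of the complex that recognises the 5' splice site, had 244 bases before a gap of 99 in flowering panicles, 214 in booting panicles and 244 in flag leaves. Mago nashi crossed a gap of 1852 bases in all 3 lists, with 111 bases before it in flowering panicles, 81 in booting panicles and 81 in flag leaves.

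Ribosomal genes included L19-1 (LOC_Os03g21940), with 3 blocks in each list, and the S8-like gene (LOC_Os04g28180), a member in flag leaves only with one-block peaks in the panicles. Phytochrome A (LOC_Os03g51030), the far-red light receptor, crossed the junction by 2 bases in both panicle lists and by 32 in flag leaves. The chromatin remodeller CHD3 (LOC_Os06g08480) crossed it by 60 bases in both panicle lists and by 1 in flag leaves. Nucleosome assembly protein 1;1 (LOC_Os06g05660) was a member in flowering panicles and flag leaves, with a one-block peak in booting panicles. Matches by words include proteins of another function: acyl carrier protein 2 (LOC_Os09g36860), matched as transport, serves fatty acid synthesis.

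The inputs were compared between tissues for the genes with a member. A gene was called at a limma adjusted p under 0.05 and a log2 change of FPKM + 1 of at least 1; 5343 of the 5536 genes passed the filter of at least 1 FPKM in 3 libraries. For flowering against booting panicles 602 rose and 519 fell, which is 21.0% of the member genes, against 33.4% of all 23355 genes tested (18.1% higher and 15.3% lower) and 31.0% of 9695 genes with one-block peaks only. Their median log2 change was -0.18, against -0.09 over all genes tested. With library sums made equal, 523 were higher and 680 lower, and the median over all genes tested was -0.21, so the balance of directions depends on the scaling. The part that the level of member genes plays in their share of calls was not tested.

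Against flag leaves, 1305 member genes were higher and 513 lower in flowering panicles, 34.0% against 42.5% of all genes tested (31.0% higher and 11.5% lower). In booting panicles 1873 were higher and 805 lower than in flag leaves, 50.1% against 54.0% (36.4% higher and 17.7% lower). The median log2 change of member genes was 0.36 for flowering panicles and 0.56 for booting panicles, against 0.44 and 0.51 over all genes tested. These comparisons share the leaf libraries. Under quantile normalization the median over all genes tested moved to -0.12 and 0.00, and the member genes split into 677 higher and 904 lower in flowering panicles and 1194 higher and 1068 lower in booting panicles, so this split depends on the scaling too. In bulk tissue, more cells of a type and more RNA per cell cannot be told apart.

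Of 361 chloroplast and photosynthesis genes with a member, 117 rose and 14 fell in flowering against booting panicles (32.4 and 3.88%, against 18.1 and 15.3% of all genes tested; median log2 change 0.56). In flowering panicles against flag leaves 47 were higher, 125 lower and 189 not called (13 and 34.6%, against 31.0 and 11.5% of all genes; median -0.57). In booting panicles against flag leaves 52 were higher and 196 lower (14.4 and 54.3%, against 36.4 and 17.7%; median -1.21). The summed leaf mesophyll markers moved the same way, and their part in these counts was not tested. Photosystem II 10 kDa polypeptide (LOC_Os08g10020) was at 1333 ± 154 FPKM in flowering panicles, 216 ± 46.5 in booting panicles and 9602 ± 134 in flag leaves (SD, n = 3). It was a member in the panicles, with 42 bases past the junction, and had a one-block peak in the leaf. Chloroplastic glutamine synthetase (LOC_Os04g56400), which assimilates ammonium, was likewise a member in both panicle lists and had a one-block peak in the leaf, where its level was highest at 1385 ± 52.3 FPKM, against 218 ± 14.8 in flowering panicles and 19.8 ± 2.26 in booting panicles (SD, n = 3).

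Of 46 chromatin genes tested, 0 rose, 15 fell and 31 were not called in flowering against booting panicles. The shares that rose and fell were 0 and 32.6%, against 18.1 and 15.3% of all genes tested (median -0.65). With equal library sums 18 fell (39.1%, against 17.9% of all genes), and under quantile normalization 14 fell (30.4%, against 17.2%). Histone deacetylase HD2 (LOC_Os05g51830) was at 102 ± 5.01 FPKM in flowering panicles and 214 ± 20 in booting panicles (SD, n = 3), a log2 change of -1.06. Vesicle traffic genes gave 5 higher and 15 lower of 80 in the same comparison (6.25 and 18.8%, the lower share close to the 15.3% of all genes; median -0.51). In booting panicles against flag leaves 53 were higher and 3 lower (66.2 and 3.75%, against 36.4 and 17.7% of all genes; median 1.32). Between the panicles, 15 of 201 translation genes were higher and 12 lower (7.46 and 5.97%, against 18.1 and 15.3% of all genes, median -0.43). With equal library sums they gave 13 and 21 (6.47 and 10.4%, against 16.5 and 17.9% of all genes). Booting panicles against flag leaves gave 104 higher and 23 lower (51.7 and 11.4%, against 36.4 and 17.7% of all genes, median 1.04). In flowering panicles against flag leaves, 33 vesicle genes were higher and 1 lower (41.2 and 1.25%, against 31.0 and 11.5% of all genes). There 47 translation genes were higher and 8 lower (23.4 and 3.98%), both below the shares of all genes. Under quantile normalization the vesicle list gave 14 and 3 (17.5 and 3.75%) and the translation list 12 and 16 (5.97 and 7.96%). The shares of all genes were then 18.0 and 20.3%. Splicing and RNA-binding genes gave 4 higher and 7 lower of 120 between the panicles (3.33 and 5.83%, median -0.40). Against flag leaves in booting panicles, 31 of these 120 were higher and 9 lower (25.8 and 7.5%, against 36.4 and 17.7% of all genes). Under quantile normalization 14 were higher and 12 lower (11.7 and 10%, against 24.6 and 24.1%). In each case both shares were below those of all genes.

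Set beside 18.1% higher and 15.3% lower of all genes tested, the remaining lists had 8 higher and 8 lower of 132 ubiquitin and proteasome genes, 15 and 20 of 121 transcription factors (12.4 and 16.5%), 12 and 14 of 111 kinases and phosphatases, 27 and 10 of 105 transport genes, 6 and 5 of 35 chaperones, 1 and 1 of 4 pollen and anther genes and 2 and 0 of 7 clock and flowering genes in flowering against booting panicles. With equal library sums the ubiquitin list gave 6 and 13 (4.55 and 9.85%) and the chaperones 3 and 6 (8.57 and 17.1%). The shares of all genes were then 16.5 and 17.9%. Mago nashi (LOC_Os12g18880) was not called between the panicles with the FPKM as deposited (log2 change -0.93). It was called lower at flowering with equal library sums (-1.07) and without booting panicle replicate 1 (-1.01). Its level was higher in booting panicles than in flag leaves (log2 change 1.47).

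Several floral regulators were among the named genes that were higher in panicles than in the leaf. MADS-box transcription factor 8 (LOC_Os09g32948), a regulator of floral organ identity, was at 202, 269 and 291 FPKM in flowering panicles, 177, 162 and 153 in booting panicles and 0.56, 0.5 and 0.248 in flag leaves. All panicle libraries lay far above all leaf libraries (log2 change 7.46, SE 0.14, limma adjusted p = 8.85e-11 for flowering panicles, and 6.85, SE 0.14, adjusted p = 3.37e-11 for booting panicles). Its peak spanned the junction on chromosome 9 in both panicle lists, 19658779 to 19659766 in flowering panicles, with 410 bases in the last exon and 89 before a gap of 489. In flag leaves the same last exon held a one-block peak of 60 bases. MADS-box transcription factor 8 was also among the floral markers used to check the labels.

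A related MADS box protein gene (LOC_Os08g41950) was at 205 ± 31.1 FPKM in flowering panicles, 160 ± 10 in booting panicles and 0.482 ± 0.32 in flag leaves (SD, n = 3), and had members in both panicle lists and no 3' UTR peak in the leaf. MADS-box transcription factor 16 (LOC_Os06g49840), a regulator of inner floral organs, kept a 4-block peak in all 3 lists, although its level in the leaf was 10.7 ± 0.599 FPKM against 322 ± 51.5 in flowering panicles and 208 ± 6.25 in booting panicles (SD, n = 3). YABBY 1 (LOC_Os07g06620), of a family that sets lateral organ polarity, spanned the junction only where its level was low. It was at 264 ± 17.8 FPKM in flowering panicles, 274 ± 26.4 in booting panicles and 1.74 ± 0.605 in flag leaves (SD, n = 3), with one-block peaks in the panicles and a 2-block peak of 746 exonic bases in the leaf.

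Between the panicles, the 5 largest increases at flowering among named genes were those of genes under 1 FPKM in the leaf. The ELMO domain-containing protein A gene (LOC_Os04g01150) was at 83.7, 128 and 104 FPKM in flowering panicles and 1.06, 1.5 and 0.895 in booting panicles (log2 change 5.62, SE 0.16, limma adjusted p = 9e-10). The groups did not overlap. Its listed folds were 6.58 in flowering panicles and 68.8 in booting panicles, on the separate scales of the lists, with 2 blocks in flowering panicles and 3 in booting panicles. A guanosine nucleotide diphosphate dissociation inhibitor gene (LOC_Os03g16900), which recycles small GTPases, also had the lower listed fold where its level was higher. It was at 135, 188 and 141 FPKM in flowering panicles and 4.33, 3.75 and 3.8 in booting panicles (log2 change 4.96, SE 0.14), with listed folds of 2.42 in flowering panicles and 52.9 in booting panicles.

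Genes for moving phospholipid and sugar were in this group. A phosphatidylinositol/phosphatidylcholine transfer protein (LOC_Os02g24430) was at 155 ± 28.6 FPKM in flowering panicles and 4.27 ± 0.829 in booting panicles (SD, n = 3; log2 change 4.88) and had 4 blocks in flowering panicles, 5 in booting panicles and 4 in flag leaves, with the same last block of 203 bases. The sucrose transporter SUT3 (LOC_Os10g26470) was at 22.3, 29.1 and 25.6 FPKM in flowering panicles and 0.016, 0.0615 and 0.0539 in booting panicles (log2 change 4.67, SE 0.1). It had a one-block peak in flowering panicles and junction-spanning peaks in booting panicles and flag leaves, where hardly any input was measured. The vesicle-associated protein 2-1 gene (LOC_Os10g40140) was a member in flag leaves only, at 0.022 ± 0.038 FPKM there, against 31.5 ± 4.35 in flowering panicles and 0.0974 ± 0.0298 in booting panicles (SD, n = 3).

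Among the named genes, the largest decrease at flowering was that of 3-oxoacyl-[acyl-carrier-protein] reductase 4 (LOC_Os12g13930), an enzyme of fatty acid synthesis. It was at 1.16, 1.23 and 1.12 FPKM in flowering panicles and 157, 59.5 and 101 in booting panicles (log2 change -5.52, SE 0.27, limma adjusted p = 3.89e-08). The booting libraries varied widely but stayed above all flowering ones. The gene had a 3-block member in flowering panicles, and no peak was listed for it in booting panicles, where its level was highest. An amidase gene (LOC_Os11g06900) was at 3.07, 3.33 and 3.69 FPKM in flowering panicles and 73.6, 75.5 and 81.5 in booting panicles (log2 change -4.16, SE 0.09) and kept the same last block of 355 bases in all 3 lists. The major pollen allergen Ole e 10 gene (LOC_Os08g04140) was at 0.71 ± 0.454 FPKM in flowering panicles and 74.7 ± 30.9 in booting panicles (SD, n = 3; log2 change -5.41), but its junction-spanning peaks reached outside the gene, so they may belong to a neighbour. A glycine rich protein (LOC_Os06g21270), with a log2 change of -4.85, was a member in flowering panicles only, and HOTHEAD (LOC_Os10g38050), with a log2 change of -3.50, in flag leaves only.

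Among the named genes that were lower in panicles than in the leaf were leaf enzymes. Catalase-1 (LOC_Os03g03910), which breaks down peroxide in peroxisomes, was at 190, 147 and 163 FPKM in flowering panicles, 6.67, 6.77 and 6.23 in booting panicles and 1704, 1797 and 1885 in flag leaves. The 3 groups did not overlap (log2 change -7.89, SE 0.09, limma adjusted p = 1e-11 for booting panicles against flag leaves). In booting panicles and flag leaves it had the same one-block peak of 330 bases, and in flowering panicles a member that reached 12 bases past the junction. The photorespiratory oxidase GLO5 (LOC_Os07g05820) was at 53.0 ± 4.18 FPKM in flowering panicles, 3.0 ± 0.234 in booting panicles and 494 ± 23.9 in flag leaves (SD, n = 3), and was a member in flowering panicles and flag leaves with the same last block of 494 bases. In booting panicles its peak stopped 19 bases short of that junction.

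A pair of CHUP1 genes, which position chloroplasts, was also lowest in booting panicles, with log2 changes against flag leaves of -6.82 (LOC_Os12g01449) and -6.63 (LOC_Os11g01439). The copy on chromosome 12 was a member in every list, and that on chromosome 11 in flag leaves only, by 1 base; their reads may have been split between such similar copies. Of the other genes that were lower in panicles, the PAP-specific phosphatase gene (LOC_Os07g37230) kept its junction in all 3 lists at levels of 2.21 ± 0.231, 1.8 ± 0.0972 and 89.6 ± 3.66 FPKM in flowering panicles, booting panicles and flag leaves (SD, n = 3). The UPF0481 protein gene (LOC_Os11g33394), with log2 changes against flag leaves of -5.33 in flowering panicles and -6.44 in booting panicles, was a member in booting panicles and flag leaves. Nicotianamine aminotransferase (LOC_Os02g20360), an enzyme of phytosiderophore synthesis, was a member in flag leaves only, and a cysteine-rich receptor-like protein kinase (LOC_Os10g04730) in booting panicles only, where its level was 0.122 ± 0.0187 FPKM against 85.9 ± 3.08 in flag leaves (SD, n = 3). The vacuolar cation/proton exchanger 1c gene (LOC_Os02g21009) had members in flowering panicles and flag leaves, while beta-hexosaminidase 3 (LOC_Os01g66700) and an AMP-binding enzyme gene (LOC_Os11g35400), both highest in booting panicles, had members in both panicle lists and one-block peaks in the leaf.

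**Figure D5:**
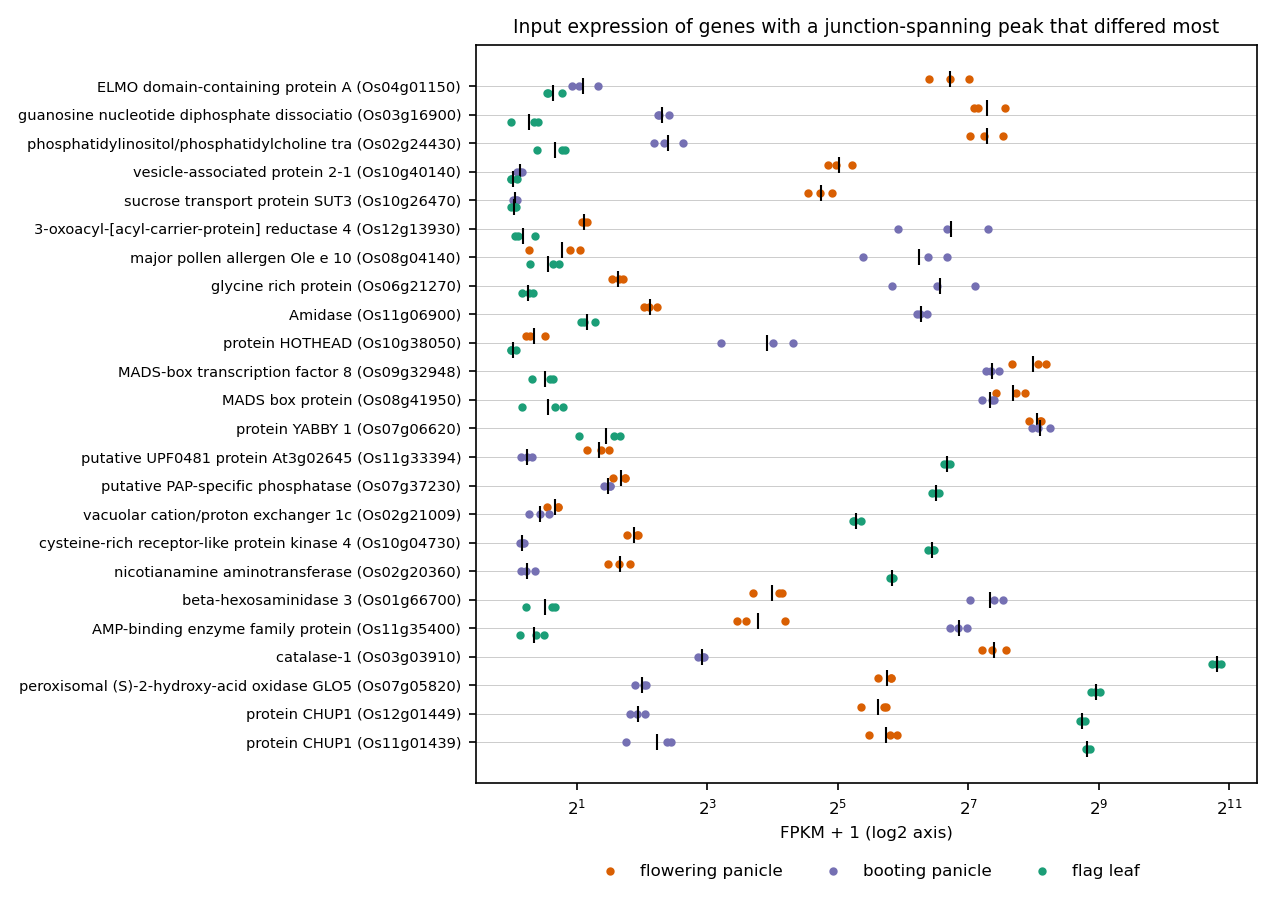
Input FPKM + 1 (horizontal axis, log2 scale) of the genes with a junction-spanning peak that differed most in a comparison; coloured points are the 3 libraries of each tissue and black ticks the group means. Panicle points of the MADS-box genes and of YABBY 1 lie far to the right of the leaf points, and those of catalase-1 and the CHUP1 genes to the left.

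Genes with a member in a single list were also compared. The junction-spanning share was larger in more highly expressed genes, so the choice of these genes is tied to their level. The part of this choice in the counts was not tested. Genes with a member in flowering panicles only gave 20 higher and 40 lower of 163 tested in flowering against booting panicles (12.3 and 24.5%, against 18.1 and 15.3% of all genes). Against flag leaves the same 163 genes gave 62 higher and 7 lower in flowering panicles (38.0 and 4.29%, against 31.0 and 11.5%). Genes with a member in booting panicles only gave 32 higher and 23 lower of 151 in flowering against booting panicles (21.2 and 15.2%). In booting panicles against flag leaves these 151 gave 63 higher and 26 lower (41.7 and 17.2%, against 36.4 and 17.7% of all genes). Genes with a member in flag leaves only gave 157 higher and 78 lower of 564 in flowering panicles against flag leaves (27.8 and 13.8%, against 31.0 and 11.5%). For booting panicles against flag leaves the 564 gave 183 higher and 121 lower (32.4 and 21.5%, against 36.4 and 17.7%). Of the genes whose member overlapped no peak elsewhere, 12 of 24 in flowering panicles, 21 of 40 in booting panicles and 38 of 49 in flag leaves passed the expression filter.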

How the data were processed

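Libraries of m6A immunoprecipitates and inputs (9 each) were made from poly(A) RNA cut to about 100 nt, per the labels. The submitters' processing notes name HISAT2, StringTie, cutadapt, ChIPseeker and HOMER as the authors' tools; for versions, peak caller and genome build: not given in the sources used here. FPKM values were deposited by the authors for 9 inputs. The deposited peak lists give, per the file headers, a fold ratio, a p-value (score column) and the log10 of p and of FDR as scores. Peaks carry no strand of their own, so the strand of the listed gene was used.

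Here blocks were read from the deposited sizes and starts, and partners needed 50% of the exonic bases of both peaks. Expression was compared in limma 3.58.1 (R 4.3.3) with a trend on log2(FPKM + 1), for genes with at least 1 FPKM in at least 3 libraries, with Benjamini-Hochberg adjustment; fold changes on this scale understate changes of low genes. The fit and the overlap count were tested on simulated data. FPKM sums ran from 504583 to 569592. At the best step, 30.4 to 42.7% of the low values tried came out whole within 0.1, so whole reads were not recovered, depth is unknown and count tests were not used. No 2 libraries of a group shared a nonzero value (0 equal). Pearson correlations of log2 values were 0.9875 to 0.9956 within groups.

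Members and lists were chosen with earlier results of these data known. Named genes had an informative description and were the 10 recurrent with the highest minimum fold, in each list the 5 of highest fold without partner at 5 FPKM or more, the 4 longest, 4 shortest and 4 with most blocks, in each comparison the 5 largest called increases and decreases with non-overlapping libraries and a mean of 5 FPKM or more where higher, and the 3 most expressed of each of 13 function lists. Other pseudocounts, filters, scalings, overlaps, peak thresholds, a replicate block and leaving out each of 9 libraries were tried.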

Additional observations from a re-analysis of the deposited data

How the results depend on the processing

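Over the 3 lists in the order flowering panicles, booting panicles and flag leaves, the junction-spanning share was 32.61, 31.18 and 34.46% with a log10 FDR of -5 or lower, 31.73, 29.93 and 32.58% with a fold of at least 2, and 27.01, 25.54 and 28.17% when 2 blocks had to hold 20 bases or more. The last rule gave median exonic lengths of 529, 532 and 532 bases. One-block medians were 390, 390 and 419 bases at the stricter FDR and 388, 388 and 416 at the fold limit. Recurrence in both other lists was 80.25, 84.56 and 76.16% with 1 shared base, 71.6, 74.73 and 67.0% with 80% of both peaks, 94.02, 92.97 and 93.16% with any peak as partner, and 80.7, 84.92 and 76.46% by gene. It was 77.35% in flowering panicles and 73.28% in flag leaves with the 20-base rule, and 76.35% in flag leaves at the stricter FDR. The level of member genes in flag leaves was 11.9 to 12.1 FPKM without single libraries.

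With a pseudocount of 5, calls of all genes were 2408 higher and 1959 lower for flowering against booting panicles, 3648 and 1655 for flowering panicles against flag leaves, and 5105 and 2710 for booting panicles against flag leaves; member genes gave 366 higher and 291 lower in the first and 701 higher in the second. Under quantile normalization flowering panicles against flag leaves gave 4210 higher and 4731 lower of all genes and 677 and 904 of member genes, and booting panicles against flag leaves 1194 higher of member genes. The pseudocount lowers the log2 change of low genes by construction; the cause of the other moves was not tested. Leaving out 1 library gave 550 to 625 member genes higher and 463 to 554 lower for flowering against booting panicles. Over the named genes and 3 comparisons, leaving out 1 library lost 10 calls and gained 26. No named gene that was called changed sign under any of the alternatives run. Replicates share only a number: deviations of same-number libraries correlated at -0.189 to 0.118. The replicate block left the member genes at 602 higher and 519 lower, 1305 and 513, and 1873 and 805 in the 3 comparisons, and changed the call of none of the named genes.

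Peak lists pool replicates, so the spread of a peak between plants cannot be given. Many peak lengths differ in steps of about 30 bases, which limits how far a crossing of a few bases can be read.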

Other observations

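The extremes of the junction-spanning peaks were not typical last-exon peaks. The longest of all, 6650 exonic bases in 2 blocks in booting panicles, lies in a gene described as a polyprotein (LOC_Os05g42960), listed at 0 in all 3 booting inputs, and others of 4879 and 2535 bases in flag leaves lie in genes described as Ty3-gypsy retrotransposon proteins (LOC_Os11g19520 and LOC_Os01g31020). The most blocks, 17, were crossed in booting panicles by vacuolar protein sorting-associated protein 52 A (LOC_Os10g34680), at 0.0041 ± 0.0071 FPKM there, against 3.11 ± 0.699 in flowering panicles (SD, n = 3). The peak of STRUBBELIG-RECEPTOR FAMILY 7 (LOC_Os03g08550), a receptor-like kinase, had 14 blocks in flag leaves and reached outside the gene. The 8-block peak of an NADP-dependent malic enzyme gene (LOC_Os01g54030) in flag leaves recurred in the panicles. Among genes with an informative description, the shortest, 61 exonic bases each, were those of glycerol-3-phosphate dehydrogenase (LOC_Os01g74000), glycine-rich RNA-binding protein 4 (LOC_Os04g49440) and GPR107 (LOC_Os06g04130), all in flag leaves, with folds of 2.09 to 3.19 and ends 359 to 524 bases from the end of the gene. That of serine carboxypeptidase 1 (LOC_Os02g26480) had 90 bases in booting panicles.

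Some members lay in genes with hardly any measured input. Genes under 1 FPKM in the tissue of the list held 171 of 4663 members with a level in flowering panicles (3.67%), 195 of 4428 in booting panicles (4.40%) and 436 of 4922 in flag leaves (8.86%), against 10.1%, 9.73% and 18.1% of one-block peaks. Of these members, 16, 43 and 188 were in genes at 5 FPKM or more in another tissue.

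At loci with a member in every list, the ratio of the listed folds was set beside the change in expression of the gene, for 3641 loci whose gene was tested. For flowering against booting panicles the median log2 ratio of folds was -0.76 in 303 loci whose gene rose, -0.55 in 3075 not called and -0.32 in 263 whose gene fell. The Spearman correlation over loci was -0.20, -0.20 against flag leaves in flowering panicles and -0.15 in booting panicles. It is a description: the lists were scaled separately, the inputs enter both measures, and one-block peaks in both lists gave -0.30, -0.19 and -0.21.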
